A study of Mus musculus with 6 samples.

Results

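The 76 genes described here carry the symbols of mitochondrial ribosomal proteins, and all but Mrps36 encode one. They are the genes whose symbol starts with Mrpl or Mrps followed by a digit, 47 Mrpl and 29 Mrps, out of 18193 genes with a probe set that names a single gene. The tissue was the left ventricle of male mice of strain C57BL/6, 12 to 16 weeks old. One group of 3 samples carried a targeted disruption of akt2 on both alleles (akt2-/-), after repeated backcrossing to C57Bl/6 mice, and 3 samples were wild type. The labels name no promoter or Cre that would limit the disruption to the heart, and whether each sample is an animal of its own is not stated in the labels. RNA of each sample was hybridised to its own Affymetrix array, so the data are 1 signal per probe set and array. Where a gene had several probe sets, the brightest over all 6 arrays stands for it.

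Mitochondria keep a small genome of their own, which codes for core subunits of the respiratory chain and ATP synthase, and they translate it on a ribosome that resembles that of bacteria. The RNA of this mitoribosome is made in the organelle, but all of its proteins are encoded in the nucleus, made in the cytosol and imported. Large subunit proteins carry the symbol Mrpl and small subunit proteins Mrps, with a few exceptions of history. The heart muscle is packed with mitochondria, and inherited defects of several of these proteins cause disease of the heart muscle in infancy. Akt2 is one of the kinases that carry the insulin signal inside muscle and fat cells.

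Akt2 itself followed the labels. Its signals were 477.8, 394.5 and 255.4 in knockout replicates 1 to 3 and 2363, 2561 and 2505 in wild type replicates 1 to 3, so the groups lay far apart. The log2 difference was -2.69 (SE 0.24), with a limma adjusted p of 0.0638. By their controls, the arrays numbered 1 in the knockout and in the wild type differed from the other 4. The poly-A spike-ins, transcripts added before labelling, had median signals of 83 and 50.95 on them against 628.6 to 1015 elsewhere, and the 18S rRNA probe sets 57275 and 82330 against 152.7 to 446.7. Their median signals over all probe sets were 134.3 and 167.2, against 88.4 to 91.2. The labels name no batch, so these arrays are called the replicate 1 arrays. The difference in replicates 2 and 3, without them, is given for the members described one by one, as a median for lists of genes, and for some of the other genes named. Markers of ventricular myocytes were bright throughout, with a geometric mean signal of 39990 to 110223 over 9 genes. Their median log2 difference of knockout minus wild type was -0.074, with 2 above 0 and 7 below. It was -0.64 for replicate 1 (74311 in the knockout and 110223 in the wild type) and 0.16 for replicates 2 and 3.

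No mitochondrial ribosomal protein gene differed between the genotypes in the test across all genes. All 76 members passed the filter on low signals, and 0 of 76 had a limma adjusted p under 0.05, where 0.0% of the 11075 genes tested did. At an unadjusted p under 0.05 there were again 0 members, against 2.17% of all genes tested. Every adjusted p of a member was 1, and the lowest unadjusted p was 0.107, for Mrps30. In bulk tissue, fewer cells of a type and less RNA per cell cannot be told apart, and this holds for each value below.

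The differences were also small. The median log2 difference of knockout minus wild type was 0.016 over the members and 0.015 over all genes tested, with 43 members above 0 and 33 below. Single members ran from -0.35 (Mrps30) to 0.25 (Mrps26), and 48 of 76 lay within 0.1 on the log2 scale. That is 63.2% of the members, against 39.2% of all genes tested. No member differed by more than 1.5-fold, as 3.82% of all genes tested did. The typical error was also smaller, with a median SE of 0.19 over the members against 0.23 over all genes tested. The members were brighter, however. Their median log2 signal was 11.71 to 11.90 on single arrays, against 9.34 to 9.39 over all genes tested. These comparisons were not matched for signal.

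The intervals show how much difference these arrays leave room for. The 95% confidence interval of limma held 0 for all 76 members. It stayed within 1.5-fold in either direction for 52 members and within 2-fold for 74. The exceptions were Mrps15, whose interval ran from -1.19 to 0.93, and Mrpl33, from -1.09 to 0.57. Both had a low signal on the replicate 1 arrays, described further on, and without those arrays their differences were -0.17 and -0.27.

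**Figure D1:**
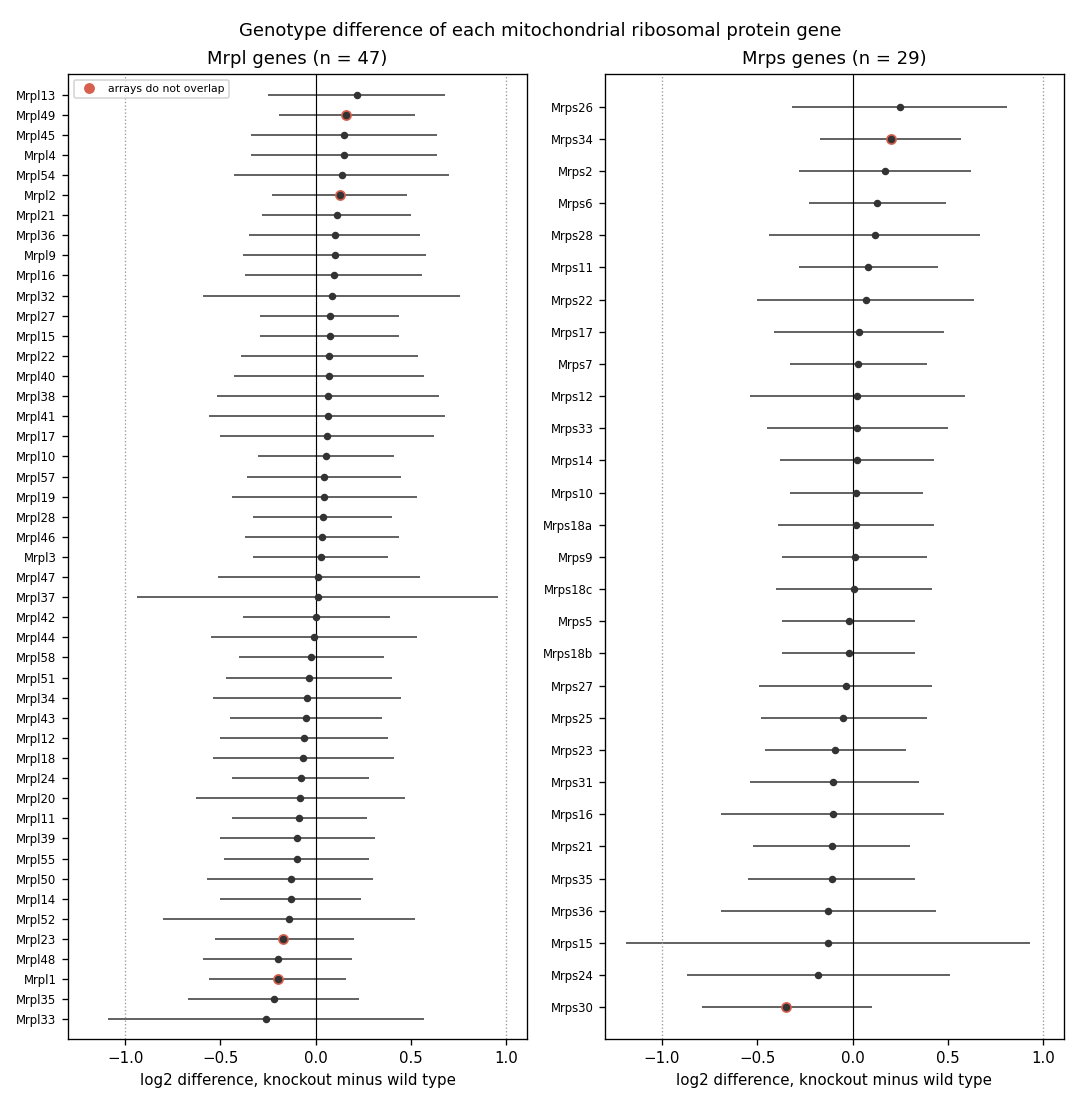
Log2 difference of knockout minus wild type for the 47 Mrpl genes and the 29 Mrps genes, with points at the limma estimate and bars for its 95% confidence interval (3 arrays per genotype). Dotted lines mark 2-fold; every bar crosses 0, and red points are the 6 genes whose knockout and wild type arrays do not overlap.

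By subunit the picture was the same. The 49 members of the large subunit had a median log2 difference of 0.016 and the 26 of the small subunit 0.015. Mrps30 and Mrps18a are counted with the large subunit, where structures place them in spite of their symbols. Mrps36 belongs to neither, since it is now known as a component of the 2-oxoglutarate dehydrogenase complex of the citric acid cycle. The 45 members with a counterpart in the bacterial ribosome had a median of 0.024 (28 above 0, 17 below), and the 30 that are particular to the mitoribosome had -0.0019 (15 above, 15 below).

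The split into higher and lower members followed the scaling of the arrays. It was 43 against 33 with the deposited scaling and 38 against 38 after quantile normalisation. With each array scaled to the same median signal it was 62 against 14, but the median of all genes tested then stood at 0.12, the same as that of the members.

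Promoters of such genes are known for a few sequence motifs, those of the nuclear respiratory factors NRF1 and GABP (an ETS factor, also called NRF2) and of YY1. RefSeq promoters of assembly GRCm38.p6, from 250 bases before to 50 after the start, matched 67 of the 76 members. Both strands were searched, and a match here is only a run of letters. A gene counted where any of its listed starts had a match, so genes with more starts had more chances. The shares below were not matched for the number of starts or limited to protein-coding genes. The ETS core CCGGAAG was present in 25 members (37.3%), against 20.1% of 8973 tested genes and 9.93% of all 27025 genes with a promoter. The YY1 motif AAGATGGCG was present in 8 (11.9%, against 3.72% and 1.64%), and the 10-letter NRF1 motif in 3, Mrpl9, Mrpl32 and Mrpl39 (4.48%, against 2.35% and 1.07%). CCAAT was found in 26 members (38.8%, against 42.5% and 41.1%) and the E box CACGTG in 5 (7.46%, against 11.8% and 8.09%).

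The genotype differences of members with and without these letters are given as medians, and no test was made of them. The median log2 difference was 0.084 in the 3 members with the NRF1 motif and 0.0066 in the others with a promoter entry. It was -0.018 with the ETS core and 0.013 without, 0.0075 with the YY1 motif and 0.01 without, 0.0075 with CCAAT and 0.01 without, and 0.012 with the E box and -0.0019 without. Mrps18a and Mrps27 held both the ETS core and the YY1 motif, and 19 members held none of the 5 motifs.

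Among the members with lower signals in the knockout, Mrps30 had the lowest p. It encodes a large subunit protein once described as a programmed cell death gene. Its probe set gave 1908, 2058 and 2168 in wild type replicates 1 to 3 and 1296, 1821 and 1734 in the knockout. All 3 knockout arrays lay below all 3 wild type arrays, with knockout replicate 1 lowest. The log2 difference was -0.35 (SE 0.19, interval -0.79 to 0.10) and a limma adjusted p of 1. The replicate 1 pair had -0.55, and replicates 2 and 3 had -0.25. With the replicate number as a block, Mrps30 was the one member with an unadjusted p under 0.05 (adjusted p = 0.767 by limma), where 5.99% of all genes tested were. With the replicate 1 arrays as a block it was again that one member (adjusted p = 0.586 by limma), against 8.32% of all genes tested, and 0.00903% of them had an adjusted p under 0.05. The 120 bases before its start (chr13:118387253-118387372, minus strand, GRCm38.p6) hold CCAAT on the opposite strand, in capitals, and no ETS, YY1 or NRF1 letters; they are shown as the promoter of the member with the lowest p.
Mrps30: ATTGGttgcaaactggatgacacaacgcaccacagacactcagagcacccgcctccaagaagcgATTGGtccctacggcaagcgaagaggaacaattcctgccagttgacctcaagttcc

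Mrpl1, the protein of the mobile stalk beside the exit site of the ribosome, gave 945.9, 865.6 and 918.6 in the wild type and 808.6, 838.4 and 729.5 in the knockout. The groups did not overlap, although the lowest wild type array was close to the highest knockout array. On the log2 scale the difference was -0.20 (SE 0.15), with -0.22 for replicate 1 and -0.18 for the other numbers. Its second tested probe set went the other way, at 366.3, 381.8 and 389.8 in the wild type and 511.9, 540.9 and 447.2 in the knockout. There all knockout arrays were the higher ones, at a log2 difference of 0.38 (adjusted p = 1 in a limma fit of single probe sets). The direction for Mrpl1 therefore depends on the probe set, and the mean of its probe sets gave 0.10.

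Mrpl48 is a large subunit protein particular to mitochondria. The wild type arrays had 4038, 3800 and 3624, and the knockout arrays 3017, 3228 and 3784. Knockout replicate 3 lay within the wild type range and the other knockout arrays below it. The log2 difference was -0.20 (SE 0.16), with -0.42 for replicate 1 and -0.086 for the other numbers. One of 4 start sites listed for it has the ETS core on the opposite strand, shown in capitals in the 120 bases before that start (chr7:100583131-100583250, minus strand).
Mrpl48: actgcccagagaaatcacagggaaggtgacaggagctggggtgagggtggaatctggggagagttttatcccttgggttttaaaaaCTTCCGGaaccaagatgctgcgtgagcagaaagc

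Mrpl35 is a large subunit protein that also exists in bacteria. Its signals were 4747, 5234 and 5365 in the wild type and 3558, 4707 and 5051 in the knockout. Knockout replicate 1 was far below the rest, replicate 2 just under the wild type range and replicate 3 inside it. Mrpl35 had a log2 difference of -0.22 (SE 0.19), and replicate 1 had -0.41 against -0.12 for the other numbers. Its other tested probe sets, at lower signals, had -0.047 and 0.0093, and the mean of its probe sets gave -0.085. Just after its start lies the YY1 motif, in capitals in these 30 bases (chr6:71823742-71823771, minus strand).
Mrpl35: ggcaggctgcAAGATGGCGgcttccatctt

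Mrpl23 sits at the mouth of the tunnel through which the new protein leaves the ribosome. Its arrays gave 7632, 6713 and 6708 in the wild type and 6510, 6002 and 6224 in the knockout, with no overlap. This came to a log2 difference of -0.17 (SE 0.15), and both sets of arrays had the same sign, -0.23 and -0.13. Mrpl14, to which the assembly factor Malsu1 binds, gave 4003, 3443 and 3894 against 3187, 3642 and 3525 in the knockout. Knockout and wild type overlapped, and the difference of -0.13 (SE 0.16) was -0.33 for replicate 1 and -0.031 for replicates 2 and 3.

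Higher signals in the knockout were led by Mrps34, a small subunit protein needed to keep that subunit stable. It gave 6863, 5751 and 5806 in the wild type and 7069, 6972 and 7058 in the knockout. The knockout arrays were all above the wild type ones and close to each other, while wild type replicate 1 was nearly as high. Mrps34 had a log2 difference of 0.20 (SE 0.16), made up of 0.042 for replicate 1 and 0.28 for the other numbers. A further probe set, which also names the neighbouring gene Nme3 and was left out for that reason, had a log2 difference of 0.23 (SE 0.22).

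Mrpl13 gave 7059, 7111 and 9012 in the wild type and 7476, 9513 and 9959 in the knockout. The groups overlapped through wild type replicate 3 and knockout replicate 1, and the log2 difference was 0.22 (SE 0.19). It was 0.083 for replicate 1, 0.28 for the other numbers and 0.087 with the mean of its probe sets. Mrpl49 did not overlap, at 1217, 1152 and 1267 against 1299, 1345 and 1440 in the knockout. Its highest wild type array was just under its lowest knockout array. The difference was 0.16 (SE 0.15), with 0.093 for replicate 1 and 0.20 for the other numbers.

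Mrps26, particular to the small subunit of mitochondria, had the most positive difference of all members. The wild type arrays had 1189, 1771 and 1904 and the knockout arrays 1552, 2063 and 2110. In both genotypes the replicate 1 array was the lowest, and within each replicate number the knockout was the higher one. The log2 difference was 0.25 (SE 0.24), with 0.38 for replicate 1 and 0.18 for the other numbers, and with the replicate 1 arrays as a block the limma adjusted p was 0.593. Leaving out single arrays moved it between 0.041 and 0.39. The 120 bases before its start (chr2:130563637-130563756, plus strand) hold CCAAT and, close to the start, the ETS core, both on the opposite strand and in capitals.
Mrps26: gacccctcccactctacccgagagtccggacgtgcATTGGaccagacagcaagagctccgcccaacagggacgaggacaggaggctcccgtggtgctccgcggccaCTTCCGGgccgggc

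Mrps2, which is conserved in bacteria, gave 1865, 1480 and 1369 in the wild type and 2017, 1632 and 1651 in the knockout. Here too the knockout was higher within each replicate number, but the replicate 1 arrays were the high ones. On the log2 scale the difference was 0.17 (SE 0.19), with 0.11 for replicate 1 and 0.20 for the other numbers. Mrpl2, at the catalytic centre of the large subunit, gave 3647, 3203 and 3536 against 3842, 3752 and 3730 in the knockout. Its groups did not overlap, and the difference was 0.13 (SE 0.15), with 0.075 for replicate 1 and 0.15 for the other numbers.

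**Figure D2:**
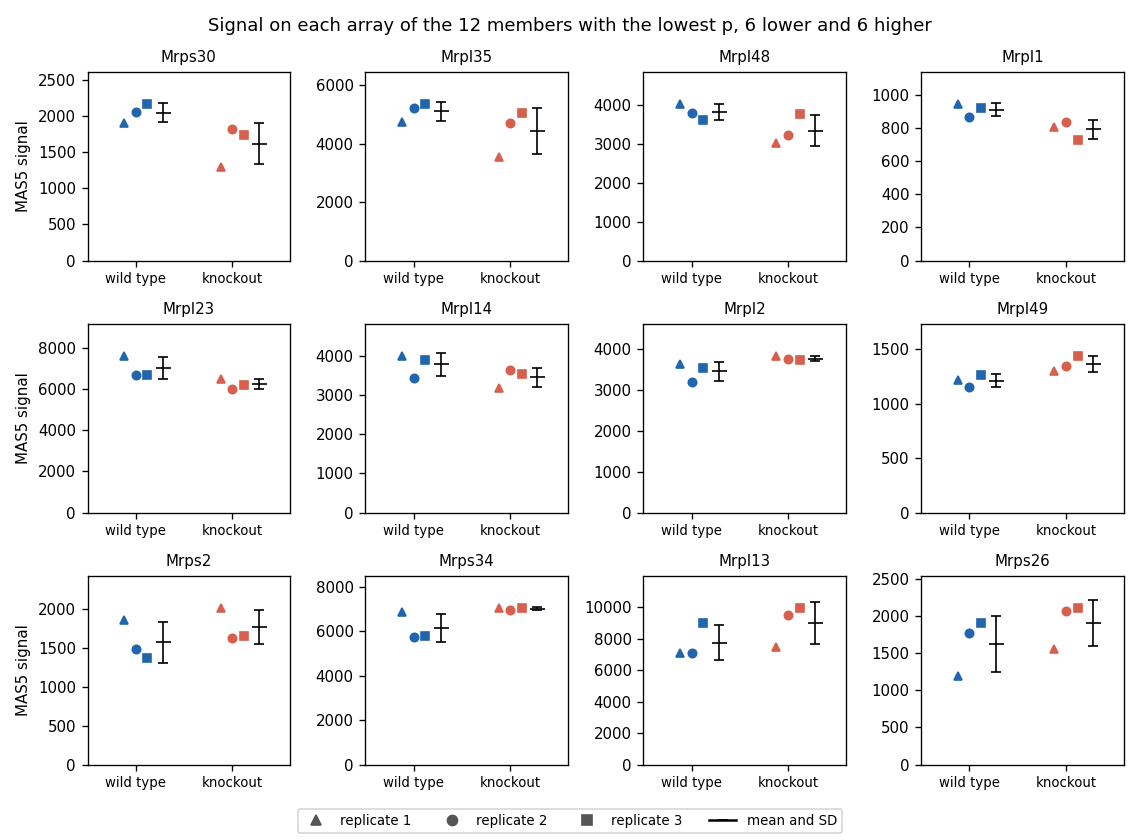
MAS5 signal on each array (vertical axes from 0) of the 12 members with the lowest p, 6 lower and 6 higher in the knockout; triangles, circles and squares are replicates 1, 2 and 3, and bars are the mean and SD of 3 arrays. Mrps30, Mrpl1 and Mrpl23 are lower and Mrps34, Mrpl49 and Mrpl2 higher in all 3 knockout arrays, and the gaps are small beside the signals.

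In all, 6 of 76 members (7.89%) had knockout and wild type arrays that did not overlap, against 7.46% of all genes tested. The 3 higher ones compare with 3.9% of genes and the 3 lower ones with 3.56%. With each array scaled to the same median signal, 0 members kept apart, against 5.21% of genes. With fewer arrays the criterion is easier to meet, for members and for all genes alike. In replicates 2 and 3 alone 39 members (51.3%) met it, against 43.2% of all genes tested. Without knockout replicate 1, 2 or 3 it was met by 20, 6 and 12 members, against 18.9%, 12.4% and 13.8% of genes. Without wild type replicate 1, 2 or 3 it was met by 23, 8 and 9 members, against 29.2%, 13.2% and 12.9% of genes.

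Of the 9 members chosen for their known roles in the heart or in the ribosome, Mrps30 had the largest difference of all 76 in size, -0.35, described above, and Mrps36 had -0.13. The other 7 lay between -0.060 and 0.070. Human defects of MRPL3, MRPL44 and MRPS22 are known causes of cardiomyopathy in infants. Mrpl3, which lines the catalytic centre, gave 4094, 3843 and 3718 in the wild type and 3823, 3856 and 4188 in the knockout, with full overlap and a log2 difference of 0.026 (SE 0.15). For replicate 1 it was -0.10 and for the other numbers 0.088. The other tested probe sets of Mrpl3 had 0.22 (SE 0.20) and 0.12 (SE 0.16), the latter without overlap. The mean of its probe sets gave 0.15. Mrpl44 gave 3198, 4892 and 4553 against 3421, 4564 and 4497 in the knockout. The replicate 1 array was the low one in both genotypes, and the difference was -0.0070 (SE 0.23), or 0.10 with each array scaled to the same median. Replicates 2 and 3 gave -0.059. Mrps22 had 1261, 2048 and 1990 in the wild type and 1544, 1988 and 1940 in the knockout. Again the replicate 1 arrays were low, and the difference of 0.070 (SE 0.24) joined 0.29 for replicate 1 with -0.040 for the other numbers.

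Mrpl12, on the stalk that recruits the translation factors, gave 8575, 10045 and 9892 in the wild type and 7495, 9748 and 10293 in the knockout. The groups overlapped, and the log2 difference was -0.060 (SE 0.19), or 0.046 with each array scaled to the same median and 0.0070 in replicates 2 and 3. Its neighbours on the stalk, Mrpl10 and Mrpl11, had differences of 0.056 (SE 0.15) and -0.086 (SE 0.15), and of 0.14 and -0.10 in replicates 2 and 3. The mean of the probe sets of Mrpl11 gave -0.32. Mrpl45, which ties the ribosome to the inner membrane, had 3122, 3427 and 3310 in the wild type and 2802, 4070 and 4259 in the knockout. Its knockout replicate 1 array was the lowest of the 6 and the other knockout arrays the highest, so the difference of 0.15 (SE 0.21) combined -0.15 for replicate 1 with 0.30 for the other numbers. Mrpl58, which releases peptides from stalled ribosomes, had -0.022 (SE 0.16), and 0.00064 in replicates 2 and 3.

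The 3 paralogs Mrps18a, Mrps18b and Mrps18c each occupy a site of their own, the first in the large subunit and the others in the small subunit. Mrps18a gave 5369, 4029 and 4456 in the wild type and 4815, 4371 and 4739 in the knockout, at a log2 difference of 0.016 (SE 0.17). Mrps18b gave 1832, 1663 and 1724 against 1735, 1637 and 1781, at -0.018 (SE 0.15). Mrps18c gave 3797, 3230 and 3186 against 3910, 3247 and 3144, at 0.0100 (SE 0.17). Replicates 2 and 3 alone gave 0.10, 0.012 and -0.0060. In all 3 the knockout and wild type arrays overlapped, and the sign of Mrps18b and Mrps18c turned with another scaling. Mrps36 gave 5292, 7613 and 7658 in the wild type and 4865, 6785 and 7195 in the knockout. The knockout was below the wild type for each replicate number, yet the groups overlapped through the low wild type replicate 1 array, and the difference was -0.13 (SE 0.24), also -0.13 in replicates 2 and 3.

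Probe sets of the same member often had different signs. The 76 members have 156 probe sets, 42 members have more than 1, and 134 of the probe sets passed the filter. Of 34 members with at least 2 tested probe sets, 16 had differences of both signs. None of the 134 had an unadjusted limma p under 0.05, and the lowest was the second probe set of Mrpl1. Among these 16 the widest gaps were those of Mrpl15 (0.61 between its probe sets), Mrpl1 (0.57), Mrps5 (0.41), Mrpl51 (0.37) and Mrpl48 (0.30). With the mean of all probe sets, dim ones included, 15 of the 76 members had the other sign. There 1 member had an unadjusted limma p under 0.05, against 2.14% of genes. It was Mrps11, at -0.56, where its brightest probe set had 0.084 and a second one below the filter -1.20.

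Mrpl15 has 8 probe sets, of which 6 were tested. Its brightest, at 4179, 4419 and 4643 in the wild type and 5054, 4399 and 4497 in the knockout, had a log2 difference of 0.073 (SE 0.15), or -0.026 in replicates 2 and 3. Only knockout replicate 1 was outside the wild type range. Its most negative tested probe set gave 178.3, 134 and 99.3 against 100.1, 81 and 95.2, a log2 difference of -0.46 at dim signals. For Mrps5 the brightest probe set had -0.017 (SE 0.15), from 983.9, 927 and 926.2 in the wild type and 879.9, 963.7 and 960.6 in the knockout, and another had 0.39 (SE 0.28). The brightest had 0.053 without the replicate 1 arrays. Mrpl51, at 13282, 14728 and 16914 against 13165, 13748 and 16944, had -0.036 (SE 0.18), and its dimmest probe set 0.33 (SE 0.35). Without the replicate 1 arrays the brightest had -0.048. Both genes overlapped between the genotypes on the brightest probe set. Mrpl30 and Mrpl53 were measured only by probe sets that also name another gene, Gm6238 and Ccdc142, and are not among the 76. Their log2 differences were 0.077 (SE 0.25) and -0.036 (SE 0.16).

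The genotype difference was also compared between the sets of arrays. In the replicate 1 pair the median over the members was -0.085, with 53 of 76 lower in the knockout. In replicates 2 and 3 it was 0.030, with 31 lower and 45 higher. Over all genes tested the medians were 0.012 and 0.0030, and the share of genes lower in each set was not counted. The direction in the replicate 1 pair depended on the scaling. The median log2 signal of the members was 11.71 on the knockout and 11.87 on the wild type replicate 1 array with the deposited scaling. After quantile normalisation these were 11.81 and 12.00. With each array scaled to the same median they were 11.43 and 11.27, against 9.11 and 8.77 over all genes tested. Signs were opposite in 40 members, or 52.6%, against 49.9% of all genes tested. In replicates 2 and 3 alone, 2 members had an unadjusted p under 0.05, Mrpl45 at 0.30 and Mrps34 at 0.28 (both with limma), where 9.84% of all genes tested did. The lowest adjusted p of a member there was 0.481.

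**Figure D3:**
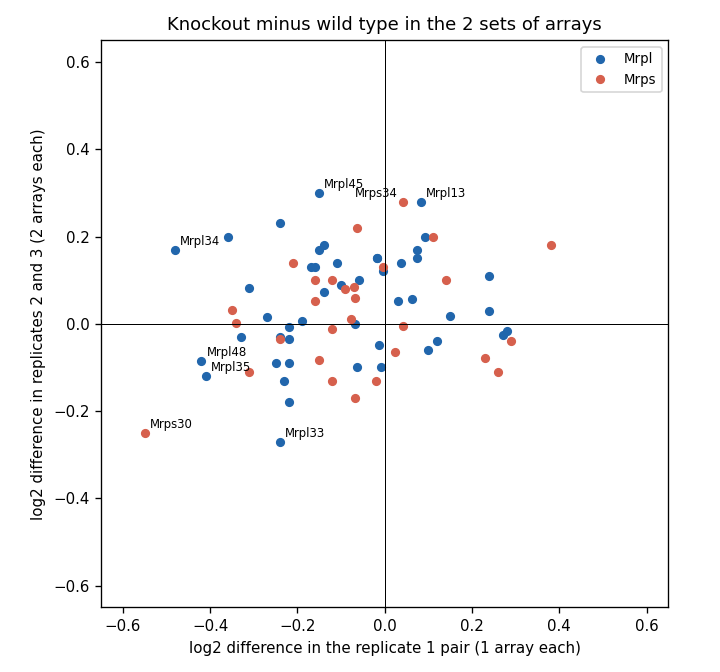
Log2 difference of knockout minus wild type in the replicate 1 pair (horizontal) and in replicates 2 and 3 (vertical) for each of the 76 members, Mrpl blue and Mrps red. With the deposited scaling, used here, most points, 53, lie left of the vertical line at 0, and 40 have opposite signs in the 2 sets.

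The members varied far more between the replicate 1 arrays and the other 4 than between the genotypes, and this was not particular to them. For genotype, 0 of 76 members and 0.0% of all genes tested had a limma adjusted p under 0.05. In a limma model with genotype, 23 of 76 members (30.3%) had an adjusted p under 0.05 for the replicate 1 arrays, against 34.0% of all genes tested. Of these, 16 were lower on the replicate 1 arrays (15.1% of all genes tested were) and 7 were higher (18.9% were). For each of the 23, both replicate 1 arrays lay on one side of the other 4. That follows largely from how the 23 were picked, and the share of all genes tested with such a separation was not counted. Over the members the replicate 1 difference spanned 1.96 on the log2 scale and the genotype difference 0.59. In 59 members the replicate 1 difference was the larger of the pair in size. Neither the spans nor this count were taken over all genes tested.

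Mrps15, a small subunit protein shared with bacteria, was the lowest. It gave 2328 and 2442 on the knockout and wild type replicate 1 arrays, and 4362, 5766, 5391 and 5879 on the others. The replicate 1 arrays were about alike in both genotypes, at a log2 difference of -1.15 (SE 0.15, limma adjusted p = 0.00834) from the rest. Mrpl33 gave 1432 and 1700 against 2919, 2256, 2880 and 3325, a log2 difference of -0.84 (SE 0.15, limma adjusted p = 0.0133). Mrps24 had -0.69 (SE 0.11) and Mrpl32, a protein matured by the m-AAA protease, -0.66 (SE 0.12), with limma adjusted p of 0.0119 and 0.0149.

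On the other side, Mrpl41 gave 8676 and 9634 on the replicate 1 arrays and 6310, 6626, 5564 and 5934 on the others. Its log2 difference was 0.58 (SE 0.12, limma adjusted p = 0.0204). Mrpl52 had 0.60, Mrpl38 0.53, Mrps28 0.51 and Mrps12, a protein of the decoding centre, 0.49. Mrpl16 and Mrpl18 had 0.37 each. So members of 1 complex stood apart in both directions on the same arrays, within the knockout and within the wild type alike.

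How many lay on each side depended on the scaling. Quantile normalisation gave 9 lower and 10 higher members, against 17.2% and 14.1% of genes. Scaling each array to the same median gave 69 lower and 0 higher, against 60.2% and 1.91% of genes, where the median of all genes tested was itself -0.65 and that of the members -0.78. The sign of the 7 higher members turned under that scaling. With no filter on low signals 4 members were called, against 12.1% of genes, and with a trended, robust variance 37 (48.7%), against 39.8%. Without knockout replicate 1, 2 or 3 the count was 20, 6 and 8 members, against 39.2%, 19.1% and 23.8% of genes. Without wild type replicate 1, 2 or 3 it was 3, 3 and 4 members, against 13.1%, 14.4% and 15.6% of genes.

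**Figure D4:**
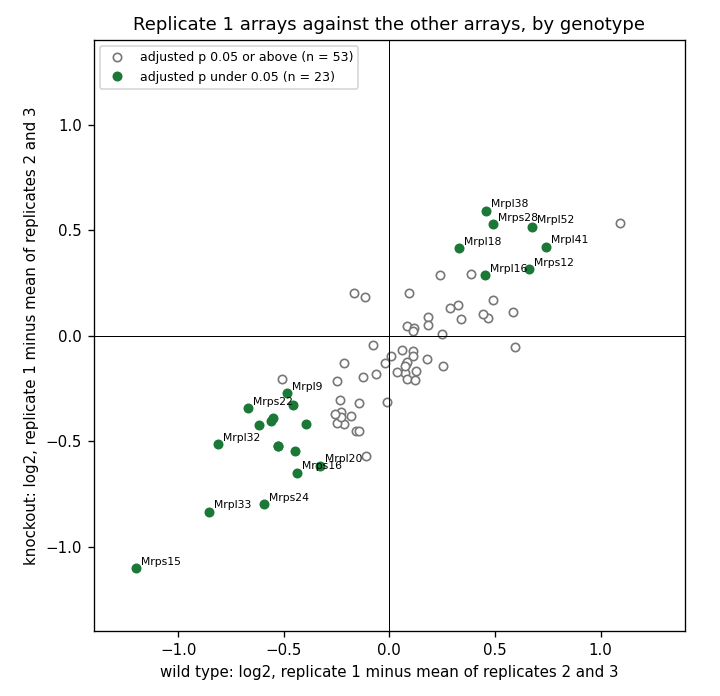
Log2 difference of the replicate 1 array from the mean of replicates 2 and 3, in the wild type (horizontal) and in the knockout (vertical), for each of the 76 members; filled points have a limma adjusted p under 0.05 for this difference (23 members), and the outermost of them carry names. Mrps15 lies at -1.20 and -1.10, and the 7 higher members lie in the upper right.

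Other genes of mitochondrial translation were read from lists of gene names, and none of their 83 tested genes had a limma adjusted p under 0.05, also with the replicate number or the replicate 1 arrays as a block. With the mean of all probe sets in place of the brightest, 20 of the 83 had the other sign, which is said below for the genes named. The list of mitoribosome proteins under other symbols had 5 tested genes, with a median log2 difference of 0.052 (0.10 in replicates 2 and 3). It includes Oxa1l, a membrane insertase that binds the ribosome and is not a ribosomal protein, at 0.018 (SE 0.20). Ptcd3, an RNA-binding protein of the small subunit, gave 2681, 3905 and 3308 in the wild type and 3641, 4071 and 4184 in the knockout. The knockout was higher for each replicate number, with overlap, at 0.28 (SE 0.19), but the mean of its probe sets gave -0.29. The GTP-binding protein Dap3 had 0.052 (SE 0.19), Chchd1 -0.063 (SE 0.21) and Gadd45gip1 0.11 (SE 0.32, with -0.26 for replicate 1 and 0.30 for the other numbers).

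Factors that assemble the mitoribosome or modify its RNA numbered 25 tested, with a median of 0.038 (17 above 0 and 8 below), and 0.079 in replicates 2 and 3. Rpusd4, a pseudouridine synthase, gave 713.8, 435.9 and 503.1 in the wild type and 506.6, 315.7 and 391.7 in the knockout. It was lower in the knockout for each replicate number, at -0.42 (SE 0.25), and with the replicate 1 arrays as a block the limma adjusted p was 0.586. Tfb1m, the methyltransferase of the small subunit RNA, had 0.26 (SE 0.26), or -0.073 with the mean of its probe sets. Mrm2, which methylates the large subunit RNA, had 0.19 (SE 0.23), with -0.11 for replicate 1 and 0.34 for the other numbers.

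The 13 translation factors had a median of 0.050, and of 0.022 in replicates 2 and 3. Elongation factors Tufm and Gfm1 had 0.050 (SE 0.17) and 0.029 (SE 0.26), the release factor Mtrf1l 0.28 (SE 0.31) and the recycling factor Gfm2 0.16 (SE 0.20). The mean of the probe sets gave -0.26 for Tufm and -0.29 for Gfm2. The RNA-degrading Pnpt1 had -0.21 (SE 0.18), with -0.53 for replicate 1 and -0.055 for the other numbers.

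The lowest p values of the pathway lay among the enzymes that charge mitochondrial tRNAs. Of 19 tested, with a median of 0.10 (0.15 in replicates 2 and 3), 1 was higher and 1 lower at an unadjusted p under 0.05, against 0.966% and 1.2% of all genes tested. The other 5 lists had 0. With the replicate number as a block 4 of the 83 had an unadjusted p under 0.05, Mars2, Vars2, Rpusd4 and Mterf1a, against 5.99% of all genes tested. With the replicate 1 arrays as a block these and Aars2 and Twnk did, 6 in all, against 8.32%.

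Mars2, for methionine, gave 232.2, 149.2 and 171.8 in the wild type and 59.3, 83.1 and 119.5 in the knockout. The knockout arrays lay under each of the wild type arrays, and the log2 difference was -0.94 (SE 0.26, limma adjusted p = 1). The replicate 1 pair gave -1.65 and the others -0.58, at dim signals, and the mean of its probe sets gave -0.20. Vars2, for valine, gave 140.7, 176.4 and 158.3 against 224.2, 267.2 and 209 in the knockout. The knockout arrays were all higher, at 0.50 (SE 0.17, limma adjusted p = 1), with 0.45 in replicates 2 and 3 and 0.56 with the mean of its probe sets. Gatc, part of the amidotransferase that completes the glutamine tRNA, had 0.31 (SE 0.20), made up of 0.66 for replicate 1 and 0.14 for the other numbers.

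Genes that transcribe and maintain mitochondrial DNA had a median of 0.10 over 11 tested, and of -0.035 in replicates 2 and 3. Mterf1a, a terminator of transcription, gave 214, 180 and 170.6 in the wild type and 164.4, 130.7 and 134.4 in the knockout, without overlap, at -0.35 (SE 0.17) and also at -0.35 in replicates 2 and 3. The helicase Twnk had 0.32 (SE 0.26), Top1mt -0.18 (SE 0.17), and the packaging factor Tfam 0.11 (SE 0.27), or -0.082 with the mean of its probe sets.

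Among 10 tested regulators of mitochondrial biogenesis the median was 0.089, and 0.040 in replicates 2 and 3. The coactivator Ppargc1a gave 2196, 2765 and 3327 in the wild type and 2368, 4047 and 3606 in the knockout, higher for each replicate number but overlapping, at 0.26 (SE 0.26). Its relative Pprc1 had 0.21 (SE 0.15) without overlap. The GABP subunits had no common direction. Gabpb2 had 0.47 (SE 0.25), with 1.12 for replicate 1 and 0.14 for the other numbers, and -0.18 with the mean of its probe sets. Gabpb1 had -0.19 (SE 0.17), and Gabpa had 0.029 (SE 0.25), with 0.51 for replicate 1, -0.21 for the other numbers and -0.024 with the mean of its probe sets. Nrf1 had -0.040 (SE 0.24), or 0.23 with the mean of its probe sets. Yy1 had 0.23 (SE 0.21), with 0.77 for replicate 1 and -0.036 for the other numbers, and -0.11 with the mean of its probe sets. Myc was below the filter.

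**Figure D5:**
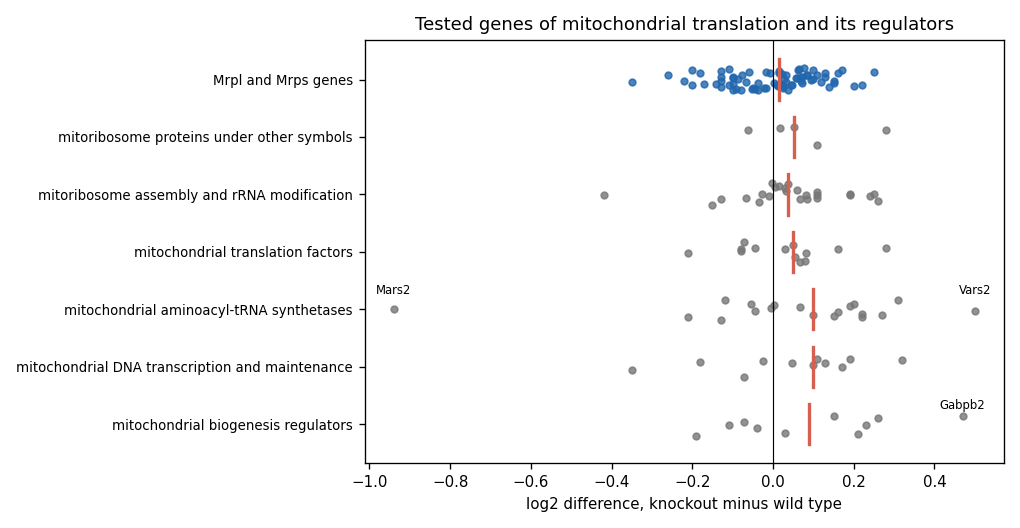
Log2 difference of knockout minus wild type of each tested gene in the members and in the 6 lists of mitochondrial translation and its regulators, with red bars at the medians; vertical scatter within a row has no meaning. The members run from -0.35 to 0.25, and the largest differences, Mars2 at -0.94 and Vars2 at 0.50, are those of tRNA-charging enzymes.

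Many of these genes start head to head with a neighbour on the other strand. Of the 67 members with a RefSeq promoter, 23 (34.3%) had a protein-coding gene starting on the other strand within 1000 bases upstream, against 13.1% of 8775 tested genes. Mrpl46 and Mrps11, of the large and the small subunit, form such a pair with each other, with their starts 42 bases apart. Mrpl46 gave 2873, 2941 and 2841 in the wild type and 2548, 2947 and 3420 in the knockout, and Mrps11 1186, 1012 and 1071 against 1182, 1194 and 1089. Both overlapped, with log2 differences of 0.032 (SE 0.17) and 0.084 (SE 0.15), each 0.13 in replicates 2 and 3. The stretch between their starts (chr7:78783090-78783130, plus strand as read towards Mrps11) is shown because it is the one that parts a pair of members, a choice made after the neighbours were known. It holds none of the 5 motifs.
Between Mrpl46 and Mrps11: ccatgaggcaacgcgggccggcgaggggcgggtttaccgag

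Partners of the other members include genes of the same pathway. Mrps12 had 0.024 beside 0.0014 of its partner Sars2, the seryl-tRNA synthetase, and Mrpl43 had -0.051 beside 0.32 of Twnk. Mrpl47 had 0.015 and Ndufb5, a subunit of complex I, 0.012. Mrpl49 had 0.16 and Fau, a fusion of a ubiquitin-like and a cytosolic ribosomal protein, -0.20. Over the 19 head-to-head partners that were tested, the Mrpl46 and Mrps11 pair included, differences ran from -0.39 (Tmem63b, beside Mrpl14) to 0.32. Of these 19, 0 had an unadjusted limma p under 0.05, with a lowest p of 0.152, against 2.17% of all genes tested. With the replicate number as a block 1 had (Tmem63b), against 5.99% of all genes tested. With the replicate 1 arrays as a block 2 had (Tmem63b and Twnk), against 8.32%. Partners below the filter ran from -0.87 (Ighmbp2) to 0.54 (Helq).

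Markers of the other cell types of the ventricle were read beside the members. Over all genes tested, 46.7% were lower in the knockout, and 3.56% were lower without overlap. Of endothelial markers 8 of 8 were lower in the knockout (median -0.16, and -0.17 in replicates 2 and 3). Among them Vwf, Tek and Pecam1 were lower without overlap. With each array scaled to the same median, Emcn and Egfl7 turned to 0.053 and 0.077. The geometric mean signal of these 8 markers was 1329 to 1563 in the knockout and 1464 to 1738 in the wild type. Of macrophage markers 8 of 8 were lower (median -0.18, and -0.17 in replicates 2 and 3), at 1155 to 2309 against 1407 to 2265. The 7 fibroblast markers had a median of 0.088 (0.13 in replicates 2 and 3) and the 6 tested smooth muscle and pericyte markers 0.051 (-0.020 in replicates 2 and 3).

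The 4 tested atrial markers, with Bmp10 below the filter, were all higher in the knockout (median 0.54, and 0.40 in replicates 2 and 3). Their geometric mean signal was 1102 to 2344 in the knockout and 459 to 1984 in the wild type, with overlap, and Myl4 turned to -0.40 with the mean of its probe sets. The 4 tested skeletal muscle markers, Acta1, Ckm, Tnni2 and Mylpf, were all lower (median -0.10), at 1587 to 2152 against 1644 to 3298. For replicate 1 they had a median of -0.59 and for the other numbers 0.10, and Tnni2 had -2.57 and -0.0017. Myh1, Myh2, Myh4 and Tnnt3 were below the filter. Of adipocyte markers Fabp4, which endothelial cells also express, was tested at 35104 to 39212 with a log2 difference of 0.041, and Adipoq, Cidec and Lep were below the filter. No marker of these lists had a limma adjusted p under 0.05, and their part in the members' values was not tested.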

How the data were processed

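Per the submitters' processing notes the signals come from MAS5, which combines the probes of a probe set. Its version and settings: not given in the sources used here. What the authors deposited are linear intensities of 45101 probe sets on 6 arrays, and their scaling was kept. Gene names are those of the platform annotation (34945 with 1 gene, 932 with several, 9160 unnamed here), and 64 control probe sets were left out. Values were transformed as log2(signal + 21.7), with the 20th percentile of all values as pseudocount, which understates the change of dim genes. Each gene was tested by its brightest probe set where that had a mean log2 of at least 6.868, the median probe set, which left 11075 genes. The fit used lmFit and eBayes of limma 3.58.1 (R 4.3.3) with no covariate. P-values were Benjamini-Hochberg adjusted over all genes tested. SE and 95% intervals are those of limma, errors of signals are SD, and the number of arrays limits the precision.

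The members and lists were chosen with earlier results of these data known. Named were the 6 members with the lowest p in each direction, 9 of known role, those without overlap, up to 5 whose probe sets differ in sign, and up to 3 genes of each list by lowest p. Mrpl10, Mrpl11, Mrpl45, Mrpl58, the array-set examples, the head-to-head partners and some list genes (among them Dap3, Tufm, Gfm1, Tfam, Ppargc1a, Nrf1, Gabpa and Yy1) were added after their values were seen. Subunits and bacterial counterparts follow the systematic names of ribosomal proteins. All 76 members matched a RefSeq gene and 67 a RefSeq promoter (GRCm38.p6). The platform annotation names no build, so coordinates belong to the sequences alone.

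Samples carry the numbers 1 to 3 within each genotype in the labels. Deviations from the genotype means correlated at 0.607, 0.455 and 0.394 for same-numbered arrays, so the number was used as a block in an alternative. Numbers 2 and 3 of unlike genotype correlated as well (0.363 and 0.445). The labels do not say that samples were separate animals, so p-values measure the spread between these samples. The fit was tested on simulated data. The simulated noise was independent, with the same SD for every gene and no difference between the replicate 1 arrays and the others. It therefore cannot show how the fit behaves on arrays like these. Alternatives were other pseudocounts (1 and 100), filters, scalings and variance estimates, the blocks, replicates 2 and 3 alone, the mean of all probe sets, and leaving out each array. The test between the replicate 1 arrays and the others was added after the controls were seen.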

Additional observations from a re-analysis of the deposited data

How the results depend on the processing

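No member had an adjusted p under 0.05 in any of 17 alternatives, and the lowest was 0.481, in replicates 2 and 3 alone. Members with an unadjusted p under 0.05 numbered 1 with the replicate block, 1 with the replicate 1 arrays as a block, 2 in replicates 2 and 3 alone, 1 with the mean of all probe sets, and 0 without any single array. The replicate block changed no call at an adjusted p under 0.05. At the unadjusted threshold it brought Mrps30 under 0.05, the partner gene Tmem63b, 2 of 83 pathway genes (Rpusd4 and Mterf1a) and 2 of 47 tested markers (Lyz2 and Myh11), where the share of all genes tested rose from 2.17% to 5.99%. Scaling each array to the same median moved the median log2 difference to 0.12 for all members, 0.13 for Mrpl and 0.12 for Mrps, with that of all genes tested at 0.12. Leaving out an array gave -0.030 to 0.041, -0.021 to 0.035 and -0.037 to 0.048. Members without overlap numbered 0 with median scaling, 39 in replicates 2 and 3 alone and 6 to 23 without an array, where fewer arrays make it easier; over all genes tested these shares were 5.21%, 43.2% and 12.4% to 29.2%. Akt2 had an adjusted p under 0.05 with a pseudocount of 100 (-2.46), a stricter filter (-2.69) and a trended, robust variance (-2.69), and ran from -2.88 to -2.45 without an array. Members differing between the replicate 1 arrays and the others numbered 4 with no filter, 69 with median scaling, 37 with the trended, robust variance and 3 to 20 without an array, against 12.1%, 62.1%, 39.8% and 13.1% to 39.2% of all genes tested; the cause was not tested.

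Of 391 values of the 23 named members under the alternatives, 38 had the other sign. With median scaling these were Mrpl12 (0.046), Mrpl44 (0.10), Mrpl51 (0.069), Mrps5 (0.086) and Mrps18b (0.086), and with quantile normalisation Mrps18c (-0.017). In replicates 2 and 3 alone they were Mrpl12 (0.0070), Mrpl15 (-0.026), Mrps5 (0.053), Mrps18b (0.012), Mrps18c (-0.0060) and Mrps22 (-0.040). With the mean of all probe sets they were Mrpl1 (0.10), Mrpl15 (-0.15), Mrpl44 (0.030), Mrpl51 (0.090) and Mrps5 (0.089). Without an array the log2 difference ran from -0.016 to 0.064 for Mrpl3, -0.15 to 0.079 for Mrpl12, -0.19 to 0.13 for Mrpl44, -0.15 to 0.055 for Mrpl51, -0.039 to 0.025 for Mrps5, -0.077 to 0.13 for Mrps18a, -0.049 to 0.019 for Mrps18b, -0.087 to 0.091 for Mrps18c, -0.15 to 0.19 for Mrps22 and -0.30 to 0.048 for Mrps36. Of the members that kept their sign, Mrps30 ran from -0.44 to -0.20 without an array, Mrpl35 from -0.32 to -0.067, Mrpl48 from -0.29 to -0.13, Mrps26 from 0.041 to 0.39, Mrpl13 from 0.14 to 0.34, Mrps2 from 0.075 to 0.30 and Mrps34 from 0.16 to 0.28. Arrays of 3 against 3 leave intervals of up to 2-fold for most members.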
